A study of Caenorhabditis elegans with 2 samples.

Results

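The nuclear genes of the mitochondrial respiratory chain and the mitochondrial ribosome are described here by the ChIP-seq peaks found near their 5′ ends. Members were the nuclear protein-coding genes of the Ensembl WBcel235 annotation whose symbol starts with nuo-, cox-, atp-, ucr-, cyc-, sdh, idh, mrpl- or mrps-. That rule found 114 of 19973 genes, 44 called respiratory (nuo, sdh, ucr, cyc, cox, atp and idh) and 70 called ribosomal (41 mrpl and 29 mrps). Genes of these complexes that carry another kind of name are not members, so that only 6 genes of complex I are included, and the genes on the mitochondrial genome itself were left out.

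Chromatin came from Caenorhabditis elegans whole late embryos of mixed sex, 4.5 h after synchronization by egg bleaching, and was precipitated with an antibody against GFP. All animals were of the strain OP615, which carries unc-119(tm4063) on chromosome III and the transgene wgIs615, and which stably expresses Y22D7AL.16, a protein with a C2H2 zinc finger domain, fused at its C terminus to GFP and FLAG. There was 1 group with 2 biological replicates, from 1 transgenic line, so nothing was compared between conditions. The peaks average over all cells of the embryo, and an untagged strain was not analysed here.

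The respiratory chain moves electrons from NADH and succinate to oxygen through complexes I to IV, with cytochrome c as the mobile carrier between complexes III and IV. ATP synthase, complex V, uses the resulting proton gradient. Complexes I, III, IV and V hold subunits encoded in both the nucleus and the mitochondrion, and the latter are made by mitochondrial ribosomes, whose proteins are all encoded in the worm nucleus. The NAD-dependent isocitrate dehydrogenase, with subunits named idha, idhb and idhg, is a Krebs cycle enzyme that supplies NADH to complex I.

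For each peak the authors' files give a position, a summit and a signal, which is the authors' own value and comparable only inside its list, and ranks within a list are therefore used below (rank 1 is the strongest peak). Lists were available for the alignments of both replicates pooled (28882 peaks), for replicate 1 and replicate 2 alone (30000 each), and after the authors' reproducibility threshold (469 peaks, called thresholded). The thresholded peaks were the 469 strongest pooled peaks. The full lists hold background as well as peaks. A gene was credited with every peak whose summit lay within 1000 bp of its 5′ end, and the strongest of these is described. No source used here gives the number of reads, and the depth behind the peaks is unknown.

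Stretches of sequence at summits show what the strongest peaks near members lie on. They are given on the strand of the member, from the RefSeq WBcel235 genome (ce11), 100 bases to either side of the summit but ended at the 5′ end of the gene. In the windows of idhg-1 and mrpl-12, which had no annotated small RNA gene (tRNA, snRNA, snoRNA or rRNA) within 200 bp, capitals mark the 11 bases centred on the summit.
idhg-1 (chrIII:4568654-4568796, plus strand): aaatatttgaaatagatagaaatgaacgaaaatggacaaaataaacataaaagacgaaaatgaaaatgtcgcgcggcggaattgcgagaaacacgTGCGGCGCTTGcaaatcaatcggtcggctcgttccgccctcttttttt
mrpl-12 (chrIII:10707148-10707348, plus strand): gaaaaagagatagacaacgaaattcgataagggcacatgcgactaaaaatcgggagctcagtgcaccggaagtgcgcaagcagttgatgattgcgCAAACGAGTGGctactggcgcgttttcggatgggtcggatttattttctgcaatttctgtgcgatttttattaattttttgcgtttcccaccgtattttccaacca
In the windows of mrps-28, cox-6A and sdha-1, capitals mark bases of an annotated snoRNA or snRNA gene.
mrps-28 (chrV:19643140-19643340, plus strand): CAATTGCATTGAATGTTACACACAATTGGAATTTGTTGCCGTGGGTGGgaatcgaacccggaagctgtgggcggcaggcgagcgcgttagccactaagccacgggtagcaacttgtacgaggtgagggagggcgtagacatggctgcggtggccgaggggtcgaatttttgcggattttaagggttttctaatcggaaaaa
cox-6A (chrIII:5080846-5081046, plus strand): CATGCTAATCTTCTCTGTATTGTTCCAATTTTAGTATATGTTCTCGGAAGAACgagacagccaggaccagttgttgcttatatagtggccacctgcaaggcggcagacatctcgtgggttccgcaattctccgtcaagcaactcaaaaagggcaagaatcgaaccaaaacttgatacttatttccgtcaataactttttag
sdha-1 (chrX:8546066-8546266, minus strand): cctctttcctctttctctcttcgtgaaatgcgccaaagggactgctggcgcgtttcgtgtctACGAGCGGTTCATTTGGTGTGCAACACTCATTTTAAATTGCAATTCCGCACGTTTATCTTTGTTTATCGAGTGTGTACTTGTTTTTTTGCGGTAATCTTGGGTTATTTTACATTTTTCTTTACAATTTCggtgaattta
The letters GTTCGA, the core of the internal B box of tRNA genes, were searched on both strands. They occur in the mrps-28 window 44 bp and in the cox-6A window 58 bp from the summit, in each case outside the annotated small RNA gene, and not in the idhg-1, mrpl-12 or sdha-1 windows. Over the 78 distinct summit windows of 201 bp at members, 11 held GTTCGA (14.1%). The share was 8.05% of the windows at the strongest peaks of all other genes, 34.3% of thresholded windows, 7.35% of the other pooled windows and 6.17% of sequences of that length before the 5′ ends of all genes. It was 8.76% of the thresholded windows away from small RNA genes. Among members, GTTCGA was in 3 of 34 respiratory and 8 of 44 ribosomal windows. Of the other motifs searched on both strands, TATAAA was in 17.9% of member windows and 17.5% of the windows of all other genes, GAGAGA in 14.1% and 15.2%, CCCGCC in 5.13% and 6.08%, and TTTCAG, the letters of the worm acceptor splice site, in 35.9% and 32.4%. A match is a run of letters and was not tested as a site.

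Few members had a strong peak, and 3 of the 5 thresholded peaks near members lay at small RNA genes. Of the 114 members 5 had a thresholded peak (4.39%, exact 95% interval 1.44 to 9.94), where 1.77% of all protein-coding genes had one. They were idhg-1, nuo-2 and cox-6A among the 44 respiratory genes (6.82%, 1.43 to 18.7) and mrps-28 and mrpl-23 among the 70 ribosomal genes (2.86%, 0.348 to 9.94). In 3 of the 5, namely cox-6A, mrps-28 and mrpl-23, the summit lay within 200 bp of a snRNA or snoRNA gene and at least 778 bp from the 5′ end of the member. Without peaks of that kind 2 members remained, both respiratory (4.55%, 0.555 to 15.5), and none of 70 ribosomal genes (0%, upper bound 5.13%), against a background of 1.32%. The respiratory and ribosomal intervals overlap in each of these counts. Of all 353 protein-coding genes with a thresholded peak, 263 had one away from small RNA genes. Of all 469 thresholded peaks, 251 lay away from them. The members' 3 of 5 was not tested against these shares.

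idhg-1, which encodes a subunit of the mitochondrial NAD-dependent isocitrate dehydrogenase, had the strongest peak of any member that was not at a small RNA gene (III, 4568797 to 4571865, plus strand). Its pooled signal was 252 and its pooled rank 43, with rank 54 in replicate 1 (signal 135) and rank 31 in replicate 2 (signal 113). The summits were 43, 44 and 43 bp upstream of the 5′ end in the pooled, replicate 1 and replicate 2 lists, so the replicates placed it within 1 bp. RefSeq starts idhg-1 216 bp further downstream than Ensembl, from where the same summit is 259 bp upstream, while 104 of the 114 members start within 50 bp in both annotations. The nearest small RNA gene to the summit was 97796 bp away. None of the 5 motifs searched was in its window.

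The other isocitrate dehydrogenase genes had no such peak. idha-1, the gene of the alpha subunit, had a pooled peak of rank 5351, with ranks of 12082 in replicate 1 and 6967 in replicate 2. idhb-1, the beta subunit, and idhg-2, a second gene with the same RefSeq product as idhg-1, had no pooled or replicate 1 peak. Their strongest peaks in replicate 2 had ranks 16632 and 28325. From the RefSeq start of idhb-1, 674 bp further downstream, its strongest replicate 2 peak had rank 26446. idh-1 and idh-2, which encode NADP-dependent enzymes and were included by their symbols, had peaks of pooled rank 5861 and 7810. In replicates 1 and 2 the ranks were 3770 and 2980 for idh-1, and 19969 and 12705 for idh-2. After idhg-1, the strongest of the 6 genes in the pooled list was thus idha-1, whereas in each replicate it was idh-1.

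nuo-2 encodes an iron-sulfur protein subunit of complex I (I, 6530131 to 6531963, minus strand). Its pooled signal was 101 and its rank 311, with rank 357 in replicate 1 (signal 55.7) and rank 354 in replicate 2 (signal 43.7). The summit lay 158 bp upstream of the 5′ end, inside an exon of the neighbouring gene T10E9.14, which ends 19 bp before nuo-2 on the same strand. The nearest small RNA gene was 50670 bp from the summit. Both replicates placed this peak among their own 469 strongest.

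cox-6A encodes subunit 6A of cytochrome c oxidase (III, 5081724 to 5082995, plus strand). Its peak had a pooled signal of 96.9 and rank 336, with rank 335 in replicate 1 (signal 57.2) and 589 in replicate 2 (signal 37.2). The summit lay 778 bp upstream of the 5′ end and 48 bp from the snRNA gene F54D8.7 (III, 5080798 to 5080898). cox-6A had no pooled peak away from small RNA genes within the allowed distance. The summit is therefore closer to the small RNA gene than to the member, as in the window printed above.

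mrps-28, a gene for a protein of the small subunit of the mitochondrial ribosome, had the highest signal of any member (V, 19644239 to 19645676, plus strand). The peak had a pooled signal of 310 and rank 18, rank 18 in replicate 1 (signal 179) and rank 23 in replicate 2 (signal 128). It stood 999 bp upstream of the 5′ end, in an intron of the divergent neighbour Y43F8C.7 and 53 bp from the snoRNA gene Y43F8C.22 (V, 19643050 to 19643187). This member is counted only because the distance allowed was 1000 bp, and it had no pooled peak away from small RNA genes within that distance.

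mrpl-23, a gene for a protein of the large subunit (I, 6211270 to 6211885, minus strand), had a peak of pooled signal 125 and rank 209, with rank 207 in replicate 1 (signal 73.0) and 184 in replicate 2 (signal 58.1). Its summit was 993 bp upstream, in an intron of the phenylalanyl-tRNA synthetase gene fars-1, which lies just before mrpl-23 on the same strand. The summit fell inside a 72 bp annotated pseudogene, WBGene00023344, and the 221 bp ncRNA gene T08B2.14 (I, 6212695 to 6212915), and 54 bp from the snoRNA gene T08B2.13 (I, 6212696 to 6212824). The strongest peak of mrpl-23 away from small RNA genes had rank 7925.

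**Figure D1:**
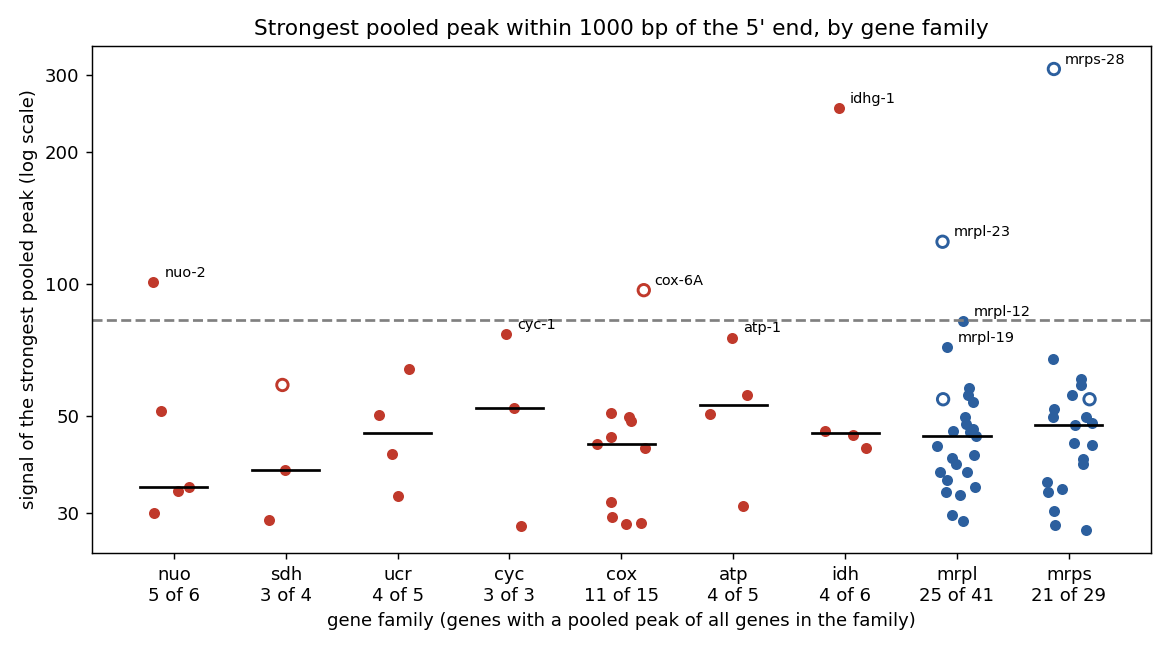
Signal (log axis) of each member's strongest pooled peak, among summits up to 1000 bp from its 5′ end, by symbol family, with respiratory genes in red and ribosomal genes in blue. Bars are medians over the genes shown, open circles have a small RNA gene within 200 bp of the summit, and the dashed line is the lowest thresholded signal (82.9); 5 members lie above it and 3 of those are open circles.

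Below the threshold the members of complex I had weak or no peaks. nuo-1 had a pooled peak of rank 3280, 288 bp upstream, with ranks 5316 and 6038 in replicates 1 and 2. nuo-5, nuo-3 and nuo-6 had pooled ranks of 15773, 16730 and 22899, and nuo-4 had no peak in any list. In complex II, the flavoprotein gene sdha-1 had a peak of pooled rank 1713 inside the snoRNA gene D2021.6, the window printed above. It ranked 951 in replicate 1 but 15309 in replicate 2, so a rank near the top was seen in replicate 1 only. sdha-2 and sdhd-1 followed at ranks 11821 and 25109, and sdhb-1, the iron-sulfur subunit, had no peak in any list.

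Among genes of complex III and cytochrome c, cyc-1, the gene of cytochrome c1, was highest. Its pooled rank was 573 (signal 76.9), with ranks 1183 and 739 in replicates 1 and 2, and the summit was 318 bp upstream. ucr-11 had a pooled rank of 1149 (ranks 4026 and 716), but its summit lay between genes, 573 bp downstream of its 5′ end and 181 bp upstream of that of spg-20. ucr-2.3, ucr-1 and ucr-2.2 had ranks of 3590, 8771 and 18123, and ucr-2.1 had no peak in any list. The cytochrome c gene cyc-2.1 had a peak of rank 3010 in an exon of the cytosolic ribosomal protein gene rpl-20 (ranks 12382 and 4385 in the replicates, at different sites). From its RefSeq start, 563 bp further downstream, that summit is 1017 bp away, and the strongest peak within the allowed distance has rank 5936. From that start the strongest summits lay 57, 58 and 60 bp upstream in the pooled, replicate 1 and replicate 2 lists. The replicate ranks there were 19136 and 4385. The other cytochrome c gene, cyc-2.2, had a pooled peak of rank 26889 and none in either replicate.

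For complex IV, 11 of 15 cox genes had a pooled peak, and after cox-6A the strongest had rank 3404 (cox-15, an assembly factor). That summit lay in an exon of cox-15, 854 bp downstream of its 5′ end. The ranks of cox-15 were 23410 in replicate 1 and 1194 in replicate 2. Replicates diverged for the structural subunits cox-5A, with rank 6988 in replicate 1 and 505 in replicate 2, and cox-5B, with ranks 668 and 6405, and in both genes the replicates' strongest summits were at different sites (289 and 626 bp upstream for cox-5A, 643 bp upstream and 47 bp downstream for cox-5B). RefSeq starts cox-5B 284 bp further downstream, from where its replicate 1 and replicate 2 summits were 927 and 237 bp upstream. The assembly factors cox-11, cox-17 and cox-19 had no peak in any list. cox-6B, a structural subunit, had none near its Ensembl 5′ end, but RefSeq starts this gene 86539 bp further downstream. Counted from there, cox-6B had a peak 153 bp upstream of pooled rank 893, with rank 5357 in replicate 1 and 379 in replicate 2. In ATP synthase, atp-1, the alpha subunit, had a pooled peak of rank 608 (signal 75.5), inside the gene 132 bp from its 5′ end, with ranks 836 and 1723 and summits 9 bp upstream and 110 bp downstream of that end in the replicates. atp-3, which encodes the oligomycin sensitivity conferral protein, had rank 2220 with a summit 26 bp upstream (ranks 5864 and 3051), and atp-2, the beta subunit, had rank 3539. atp-4 came at pooled rank 20776, but at ranks 7551 and 2383 in replicates 1 and 2. Those replicate summits were at different sites, 14 bp upstream and 994 bp downstream of its 5′ end. atp-5 had peaks in the replicate lists (ranks 8924 and 22534) but none in the pooled list.

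Among the ribosomal genes, mrpl-12 came closest to the threshold from below. Its pooled signal was 82.2 at rank 478, where the last thresholded peak had 82.9, and its ranks were 475 in replicate 1 (signal 50.5) and 1182 in replicate 2 (signal 31.7). The summit was 513 bp upstream of mrpl-12 and 220 bp upstream of its divergent neighbour Y39A1A.22. mrpl-19 followed at rank 739, with ranks 5828 and 778, then mrps-12 at rank 911, with ranks 4552 and 703. mrps-10 had rank 1475, with ranks 7222 and 1530, in an exon of npp-25, and mrps-7 had rank 1728, with ranks 1891 and 4704. mrpl-40 had a pooled rank of 1867 from a rank of 1094 in replicate 1, while its strongest peak in replicate 2 was at rank 24009 and at another site.

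Some ribosomal members shared a peak. mrpl-1 and mrps-24, genes of the large and the small subunit, are divergent, with 343 bp between their Ensembl 5′ ends. A single pooled peak of rank 2206 (signal 55.8) lay between them, 211 bp upstream of mrpl-1 and 133 bp upstream of mrps-24, with ranks 5224 and 8671 in the replicates, whose summits were 306 and 201 bp upstream of mrpl-1. RefSeq starts mrpl-1 617 bp further downstream, from where the pooled summit is 828 bp upstream. The window around its summit is printed on the strand of mrps-24, with the 11 central bases in capitals, because it lies upstream of both genes.
mrps-24 (chrIV:7709812-7710012, plus strand): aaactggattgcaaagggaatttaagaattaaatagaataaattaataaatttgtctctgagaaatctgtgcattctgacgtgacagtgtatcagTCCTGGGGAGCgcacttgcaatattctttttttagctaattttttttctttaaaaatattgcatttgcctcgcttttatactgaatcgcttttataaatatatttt
mrps-2 and mrpl-4 lie in tandem, and a peak of rank 2437 (signal 54.6) in an exon of mrps-2 was counted for both. It lay 150 bp from the snoRNA gene T23B12.13. With these, 6 of the 80 members with a pooled peak (7.50%) had a small RNA gene within 200 bp of the summit of their strongest peak, as had 2.00% of all 9556 genes with one.

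**Figure D2:**
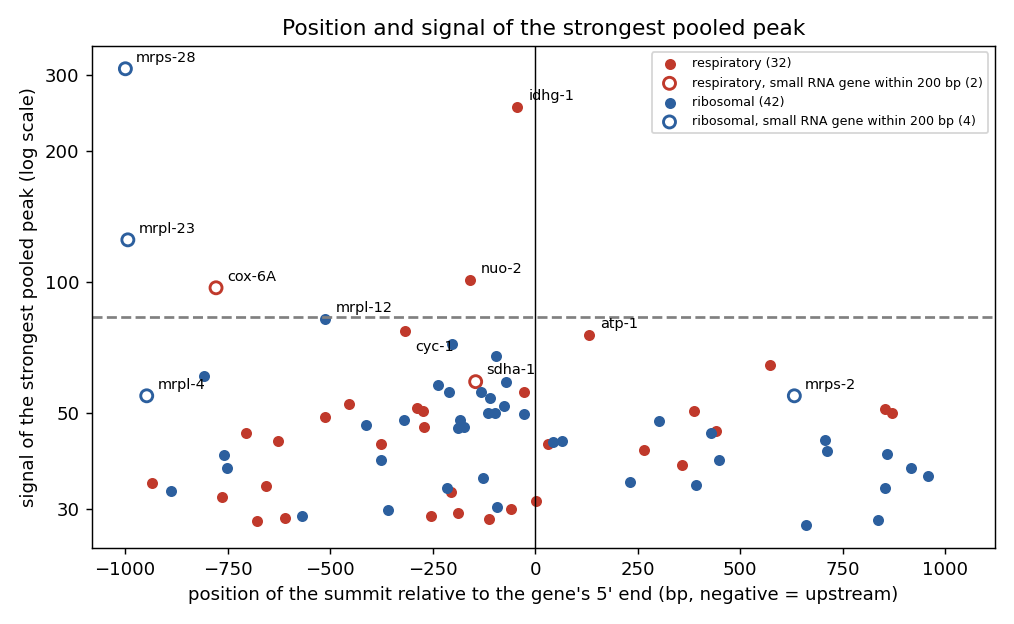
Position of the summit of the strongest pooled peak relative to the 5′ end (horizontal, bp, negative is upstream) against its signal (vertical, log axis) for respiratory (red) and ribosomal (blue) genes, with open circles for summits within 200 bp of a small RNA gene. The dashed line is the lowest thresholded signal (82.9); mrps-28 and mrpl-23 lie at the left edge (positions -999 and -993), and idhg-1 and nuo-2 lie close to the 5′ end (positions -43 and -158).

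Summits near members were more often upstream than downstream of the 5′ end. Over the 80 members with a pooled peak the median summit was 139 bp upstream of the 5′ end, and 54 summits (67.5%) lay upstream. Over all genes with a peak the median was 62 bp upstream and 53.6% lay upstream. The part from 500 bp upstream to 100 bp downstream held 40 of the 80 (50%), 17 of 34 respiratory and 23 of 46 ribosomal, against 37.8% over all genes. These shares were not tested, and a summit nearer to a neighbouring gene is still counted in them.

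When weaker peaks were counted, members of both kinds had a peak more often than genes in general. Any pooled peak was found at 34 of 44 respiratory genes (77.3%, exact 95% interval 62.2 to 88.5) and 46 of 70 ribosomal genes (65.7%, 53.4 to 76.7), where the background was 47.8%. Pooled peaks of rank up to 5000 were found at 15 respiratory (34.1%, 20.5 to 49.9) and 20 ribosomal genes (28.6%, 18.4 to 40.6), with a background of 11.7%. In replicate 1 the counts at that rank were 11 (25%, 13.2 to 40.3) and 17 (24.3%, 14.8 to 36.0; background 11.5%). In replicate 2 they were 14 (31.8%, 18.6 to 47.6) and 12 (17.1%, 9.18 to 28.0; background 11%), and the ribosomal interval included the background. In the pooled list, up to rank 1000 there were 5 respiratory (11.4%, 3.79 to 24.6) and 5 ribosomal genes (7.14%, 2.36 to 15.9), with a background of 3.16%. Up to rank 2000 there were 7 (15.9%, 6.64 to 30.1) and 8 (11.4%, 5.07 to 21.3), with a background of 5.57%. At both ranks the ribosomal interval included the background. Up to rank 10000 there were 22 (50%, 34.6 to 65.4) and 30 (42.9%, 31.1 to 55.3), with a background of 20.6%. These ranks were chosen after the values were seen. The cytosolic ribosomal protein genes (rpl- and rps-) had a peak of rank up to 5000 at 33 of 78 genes (42.3%, 31.2 to 54.0), and aminoacyl-tRNA synthetase genes at 3 of 32 (9.38%, 1.98 to 25.02). Thresholded peaks were found at 14 of the 78 cytosolic ribosomal protein genes (17.9%, 10.2 to 28.3), against 2 of 70 mitochondrial ones (2.86%, 0.348 to 9.94). No test was made of these differences, and the full lists contain background.

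**Figure D3:**
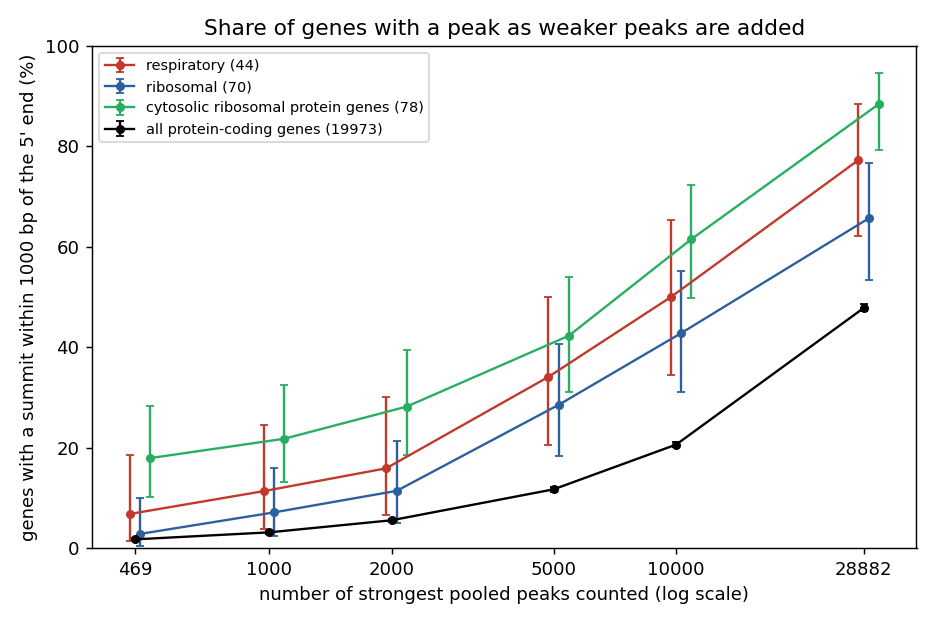
Share of genes with a summit within 1000 bp of the 5′ end (vertical, percent) as pooled peaks are added from strongest to weakest (horizontal, number of peaks counted, log axis), with exact 95% intervals over genes; points are shifted slightly sideways. At 469 peaks the respiratory (6.82%) and ribosomal (2.86%) shares have intervals that overlap each other, and at 5000 peaks both (34.1% and 28.6%) lie above all genes (11.7%).

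The order of respiratory and ribosomal genes depended on the replicate. In replicate 1 any peak was found at 30 respiratory (68.2%, 52.4 to 81.4) and 44 ribosomal genes (62.9%, 50.5 to 74.1), with a background of 48.2%. In replicate 2 it was found at 31 respiratory (70.5%, 54.8 to 83.2) and 56 ribosomal genes (80.0%, 68.7 to 88.6), with a background of 49%. Respiratory genes thus had the higher share in replicate 1 and the pooled list, and ribosomal genes in replicate 2. The median rank of the strongest peak, taken over genes with a peak, changed order in the opposite sense, with ribosomal genes nearer the top in replicate 1 and respiratory genes in replicate 2. It was 5976 for respiratory and 5750 for ribosomal genes in the pooled list (11966 for all genes), 8237.5 and 5750.5 in replicate 1 (12085 for all), and 6405 and 10038.5 in replicate 2 (12373 for all). In both measures the order of the 2 kinds of gene was thus not kept between replicates.

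Replicates placed the strong peaks at the same site and the weak ones often did not. All 5 members with a thresholded peak had their strongest peak within 100 bp of the same place in both replicates, as had 93.2% of all genes with a peak of rank 1 to 469. This was so for 18 of 30 members of pooled rank 470 to 5000 (60%) and for 11 of 45 members further down (24.4%). The corresponding shares over all genes were 56.1% and 15.1%. Agreement at the thresholded peaks was partly built in, because the authors chose them for reproducibility between these same 2 replicates. The pooled ranks also came from both replicates. Over the 65 members with a peak in both replicates, Spearman's rho of the ranks was 0.16, with 0.52 over 25 respiratory and -0.08 over 40 ribosomal genes and 0.33 over all 6321 genes. These coefficients describe genes from the same 2 libraries and are not tests. By Ensembl 5′ ends, the members with a peak among each replicate's own 469 strongest were those same genes, all 5 in replicate 1 (background 1.64%) and 4 in replicate 2 (background 1.66%), cox-6A being the exception.

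**Figure D4:**
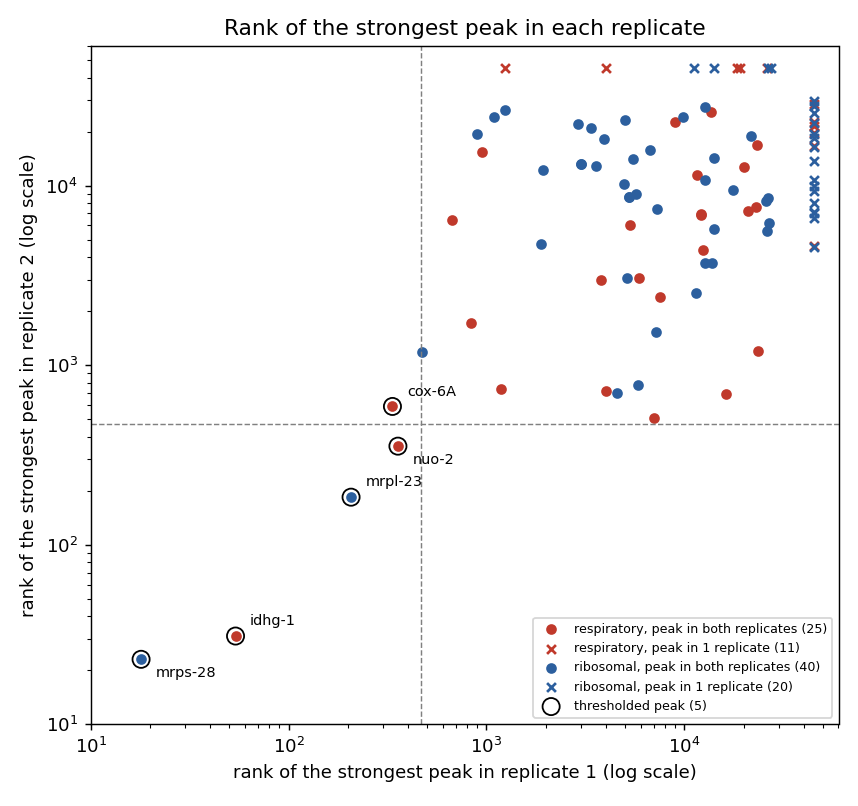
Rank of the strongest peak near each member in replicate 1 (horizontal) and replicate 2 (vertical), both on log axes, for respiratory (red) and ribosomal (blue) genes; crosses at the outer edge have a peak in 1 replicate only, and dashed lines mark rank 469. The 5 circled members with a thresholded peak lie at the lower left, cox-6A above the line in replicate 2 (rank 589), and the other points scatter widely.

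Members in close tandem behind another gene had a pooled peak less often than other members, but not less often than such genes in general. Many worm genes are cotranscribed in operons, in which downstream genes follow the preceding gene after a short gap. Operons are not annotated in the sources used here, so genes were counted whose upstream neighbour ends within 150 bp on the same strand, a cut chosen after the values were seen. Of the members 31 were of this kind (27.2%), against 7.99% of all protein-coding genes. Any pooled peak was found at 17 of these 31 members (54.8%; background 50.9% of such genes) and at 63 of the other 83 (75.9%; background 47.6% of the other genes).

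For any peak, the same order was seen in each kind of member. Among respiratory genes 7 of 11 in close tandem had a pooled peak (63.6%) and 27 of 33 others (81.8%), and among ribosomal genes 10 of 20 (50%) and 36 of 50 (72.0%). For pooled peaks of rank up to 5000 the order turned in respiratory genes, with 4 of 11 in close tandem (36.4%) and 11 of 33 others (33.3%), and held in ribosomal genes, with 4 of 20 (20%) and 16 of 50 (32.0%). In replicate 1 the shares over all members were 48.4% and 71.1% (backgrounds 52.1% and 47.8%), and in replicate 2 they were 58.1% and 83.1% (backgrounds 51% and 48.8%). No test was made, and the distance of a downstream gene from the start of its putative operon was not measured. Of the 17 members with no peak in any of the 3 full lists, 11 were in close tandem. No peak in these lists was found for 14.9% of members and 33.0% of all protein-coding genes, and 7.12% of all genes without one were in close tandem. The respiratory genes among the 17 were cox-6B (by its Ensembl 5′ end only), cox-11, cox-17, cox-19, nuo-4, sdhb-1 and ucr-2.1. The ribosomal ones were mrpl-11, mrpl-18, mrpl-36, mrpl-42, mrpl-48, mrps-11, mrps-14, mrps-18.C, mrps-22 and mrps-26. The other 17 members without a pooled peak had a peak in a replicate list.

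**Figure D5:**
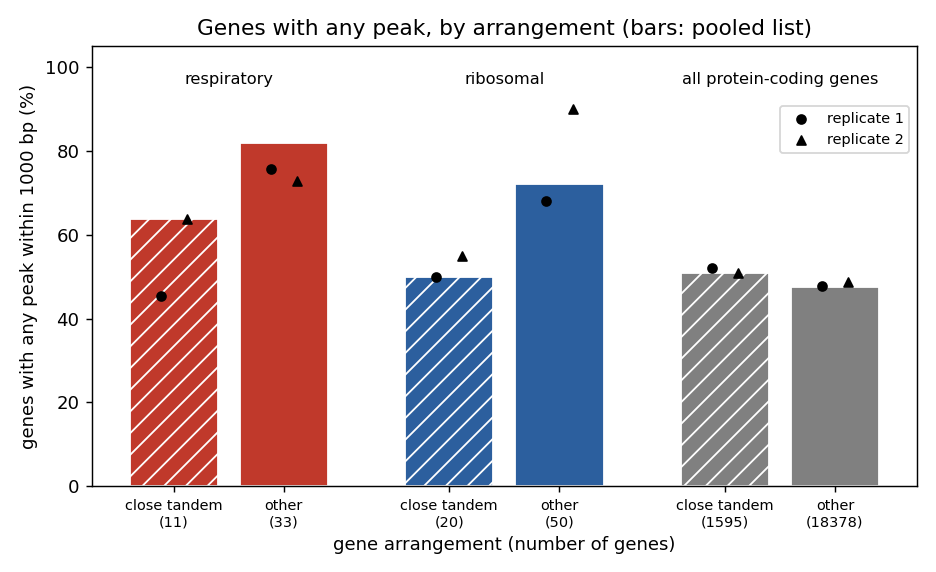
Share of genes with any peak within 1000 bp of the 5′ end (vertical, percent), for genes whose upstream neighbour ends within 150 bp on the same strand (hatched, close tandem) and for the others, with the number of genes below each bar. Bars give the pooled list, circles replicate 1 and triangles replicate 2; in respiratory and ribosomal genes the bar for close tandem is the lower (63.6% against 81.8%, and 50% against 72.0%).

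Other nuclear genes for mitochondrial proteins, listed by name and chosen with earlier results of these data known, were counted in the same way. Of 83 listed symbols 78 were matched and 50 had a pooled peak, and 6 had a thresholded one (7.69%, exact 95% interval 2.88 to 15.99; background 1.77%), none of them within 200 bp of a small RNA gene. The strongest was ears-2, a mitochondrial glutamyl-tRNA synthetase (rank 16). The others were the adenine nucleotide translocase gene ant-1.1 (283), the import receptor gene tomm-20 (367), the chaperonin gene hsp-60 (375), and dld-1 (415) and pdhb-1 (416), which encode subunits of the pyruvate dehydrogenase complex. In replicate 2 the last pair had ranks of 1991 and 2075, and only ears-2 (15) and hsp-60 (445) were among its 469 strongest. The respiratory chain subunits outside the naming rule mev-1 (complex II) and isp-1 (complex III) had pooled ranks of 1281 and 1445. The ATP synthase genes asg-1 and asb-1 followed at 3802 and 4737. The asg-1 peak is also the strongest pooled peak of the ribosomal member mrps-15. Its summit lay 28 bp upstream of mrps-15, whose 5′ end was the nearest, and it is not specific to asg-1. asg-2 and asb-2 and the complex I genes gas-1 and lpd-5 had no pooled peak.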

How the data were processed

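Peaks were deposited as lists in the ce11 build with a signal per peak; per the file headers and listing, the authors called a relaxed list on each replicate and on both pooled, against a control, and derived the thresholded list by reproducibility (IDR). Names and settings of the aligner, peak caller and IDR step: not given in the sources used here. Lists in ce10 were not used.

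Summits were compared with 5′ ends of 19973 nuclear protein-coding genes of Ensembl release 115 (WBcel235, the ce11 sequence; no peak ran past a chromosome end). tRNA, snRNA, snoRNA and rRNA genes counted as small RNA genes. The counts carry exact Clopper-Pearson 95% intervals over genes, which cover counting error only. No test was made. Named were all members with a thresholded peak, the next 6 of each kind by rank and those with a small RNA gene within 200 bp; others were named after their values were seen. Members and lists were chosen with earlier results of these data known. Peak assignment was tested on simulated data over 19973 genes, and 200 of 200 genes with a planted summit were given a planted summit. The planted summits were the strongest and lay within the allowed distance, so this checks the code only. For 2000 genes a direct search was also made, and 0 assignments differed. Python 3.11.15, numpy 2.4.6, pandas 2.3.3, SciPy 1.17.1, pysam 0.24.0 and matplotlib 3.10.9 were used. Alternatives changed the distance, assignment, 5′ ends, peak set and membership.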

Additional observations from a re-analysis of the deposited data

How the results depend on the processing

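Of 70 recomputed values 59 stayed within 1.5 times the reported count or within the replicate spread of the reported median rank, and 11 moved. The 3 respiratory genes with a thresholded peak became 5 with summits allowed within 2000 bp, 1 when only the stronger 50% of thresholded peaks counted and 5 with double their number. The 2 ribosomal genes became 0 within 500 bp, 1 when each peak was given to its nearest gene, 0 without peaks within 200 bp or within 500 bp of small RNA genes, and 5 with double the number of peaks. The distances and exclusions show why: both ribosomal summits lay over 500 bp away and at small RNA genes. The respiratory median rank of 5976 became 7770 within 500 bp, and the cause was not tested. Without peaks within 200 bp of small RNA genes it became 7183, and the ribosomal one went from 5750 to 7327.5. Both counted as unmoved because they lay within the replicate spread. Members' RefSeq 5′ ends, an alternative chosen after seeing the data, raised respiratory genes with any peak from 34 to 35 through cox-6B and left ribosomal ones at 46.

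Leaving out each replicate in turn meant using the other replicate's own list described above. Its 469 strongest peaks stood in for the thresholded ones, which cannot be remade from 1 replicate. Respiratory genes with such a strong peak ranged from 2 to 3 and ribosomal ones from 2 to 2. Respiratory genes with any peak ranged from 30 to 31 and ribosomal ones from 44 to 56. Respiratory median ranks ranged from 6405 (without replicate 1) to 8237.5 (without replicate 2), and ribosomal ones from 5750.5 (without replicate 2) to 10038.5 (without replicate 1). No paired analysis was possible because there was 1 group and no test between groups. Depth is unknown, so weak or missing peaks may lie below what these libraries could show.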

Other observations

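Members lay mostly on chromosomes III and I, with 32 (28.1%) and 28 (24.6%), which hold 13.2% and 14.4% of all protein-coding genes. On those chromosomes 55.6% and 56.7% of all genes had a pooled peak within 1000 bp, against 40.4% on V, where 15 members lay (13.2% of members). The part of chromosome in the members' share with any peak was not tested.

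In 56 of the 80 members with a pooled peak (70%) the member's own 5′ end was the nearest to the summit of its strongest peak, as it was in 84.95% of all 9556 genes with one. The letters TTTCAG, found at worm acceptor splice sites, occurred in the 201 bp before the 5′ end in 56 of 114 members (49.1%) and in 36.9% of all genes, on either strand. In the same stretch the GC content was 30.7% ± 5.90 (SD, 114 genes) for members and 33.7% ± 6.43 (SD, 19973 genes) for all genes.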
